A study of Mus musculus with 6 samples.

Results

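Histone variants are encoded outside the clustered, replication-dependent histone genes, and their polyadenylated mRNAs can be made in phases other than S phase. The genes described here are 10 such genes chosen by name from the 48709 genes of a count table: H2afz and H2afv, which encode the H2A.Z proteins, H2afx (H2AX), H2afj (H2A.J), H2afy (macroH2A), H3f3a and H3f3b (H3.3), Cenpa (CENP-A), and the linker histone genes H1f0 and H1fx. Of these, 8 had enough reads to be tested between the groups and 2, H1f0 and H1fx, were listed at 0 in all libraries.

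A variant replaces a canonical histone in part of the nucleosomes, where dedicated chaperones and remodelling enzymes place it. H2A.Z and H3.3 are found at promoters, enhancers and other sites of histone turnover, phosphorylated H2AX marks DNA breaks, macroH2A is linked to repressed chromatin, and CENP-A defines the centromere. In maturing red cell precursors the nucleus condenses and transcription becomes restricted to fewer genes.

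RNA was measured by poly(A) RNA-Seq in G1E-ER4, a culture model of red cell maturation in which tamoxifen turns on GATA-1 through an attached estrogen receptor domain. The line goes back to mouse embryonic stem cells. Both groups carried this fusion and, by the labels, differed in the peptide: CHD4-APR, an aliphatic stretch from the C-terminus of the remodelling ATPase CHD4, or CTRL, a stretch of alanines, each joined to the cell-penetrating Tat sequence. Each peptide was given at 10 μM for 2 h before tamoxifen was present for another 28 h. For tamoxifen, the description of cell growth gives 100 nM and the design text 100 μM. Each group had 3 libraries, and no source states that these came from separate cultures, so that p-values measure the spread between these libraries. All libraries come from 1 line.

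The 6 libraries held between 41687482 and 49784177 counts, of which the 10 genes took 0.233% to 0.255%. Erythroid markers were abundant in every library, with 12 of 12 tested. Their summed level was 71818 to 77093 normalized CPM, the counts scaled to a common library size, with the CTRL peptide and 61287 to 65368 with the CHD4-APR peptide. Of these 12 genes 5 were lower and 2 higher (58.3% called, against 38.3% of all genes tested), the former led by the globin genes Hbb-bs (log2 fold change -0.33), Hbb-bt (-0.32) and Hba-a1 (-0.25). After a correction for exonic length and GC content, 2 were lower (Hbb-bs at -0.19 and Hbb-bt at -0.18) and 2 higher, where 28% of all genes were called, Hba-a1 was at -0.04 and no longer passed, and the median of the list moved from -0.11 to -0.002. The part of this shift in the results below was not tested, and in bulk RNA fewer cells of a type cannot be told apart from less RNA per cell. Fibroblast markers (5 of 5) and embryonic stem cell markers (4 of 5) were listed at 0 in all libraries.

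H2afz and H2afv encode proteins of 128 residues that differ at 3 of them, while their coding sequences are the same at 306 of 387 bases (79.1%). H2afz lies on the plus strand at chr3:137864487-137866922 and H2afv on the minus strand at chr11:6427229-6444443 in GRCm38. The first 150 coding bases of each, from GENCODE M21 on that build, are shown because the genes are compared as a pair: their products are nearly the same while their coding sequences differ at 81 bases. Capitals mark the codons of 2 of the residues that differ, and the codon of the last lies just before the stop codon.
H2afz: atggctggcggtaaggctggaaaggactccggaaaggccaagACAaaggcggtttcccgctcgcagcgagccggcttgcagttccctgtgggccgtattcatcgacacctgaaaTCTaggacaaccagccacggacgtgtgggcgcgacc
H2afv: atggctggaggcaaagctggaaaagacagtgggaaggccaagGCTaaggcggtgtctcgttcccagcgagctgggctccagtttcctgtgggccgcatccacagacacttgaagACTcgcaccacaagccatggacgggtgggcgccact

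The H3.3 genes go further, since H3f3a and H3f3b encode the same protein, with 136 of 136 residues identical. Their coding sequences share 316 of 411 bases (76.9%). H3f3a has processed pseudogenes that are much closer to it, among them H3f3a-ps2 on the minus strand at chr16:91114189-91114599, which differs from H3f3a at 5 of 411 aligned bases (98.8% identical). Bases 214 to 333 of each are shown because such differences are what tells a read of one from a read of another. Capitals mark, for the H3f3a and H3f3b lines, the bases that differ between these 2, and for H3f3a-ps2 the bases that differ from H3f3a.
H3f3a: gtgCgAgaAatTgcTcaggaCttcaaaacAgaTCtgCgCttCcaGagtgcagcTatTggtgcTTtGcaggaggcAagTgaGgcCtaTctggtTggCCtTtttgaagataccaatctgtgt
H3f3b: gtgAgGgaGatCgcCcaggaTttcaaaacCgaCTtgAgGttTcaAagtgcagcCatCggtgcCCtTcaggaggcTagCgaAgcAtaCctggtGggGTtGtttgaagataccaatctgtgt
H3f3a-ps2: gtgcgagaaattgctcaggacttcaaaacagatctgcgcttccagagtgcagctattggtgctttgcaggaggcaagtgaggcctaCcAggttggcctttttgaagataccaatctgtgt

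H2AX has a serine followed by glutamine near its C-terminus that is phosphorylated at DNA breaks. The last 48 bases of the coding sequences of H2afx and H2afj show how these H2A variants end, with the codons of each serine-glutamine pair in capitals. Within the last 15 residues H2afx held 2 such pairs and H2afj held 1, against 0 in H2afz and 0 in H2afv. Such a pair alone therefore does not set H2AX apart, and which of these pairs are phosphorylated was not tested.
H2afx: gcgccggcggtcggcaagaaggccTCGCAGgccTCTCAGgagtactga
H2afj: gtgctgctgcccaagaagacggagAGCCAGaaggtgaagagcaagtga

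Compared per length, the mRNAs of H3f3a, H2afz and H3f3b were the most abundant. In CTRL libraries H3f3a stood at 256 ± 6.56 RPKM (normalized CPM divided by the exonic length in kb; SD, n = 3), H2afz at 216 ± 3.05 (SD, n = 3), H3f3b at 166 ± 7.91 (SD, n = 3) and H2afx at 149.6 ± 4.50 (SD, n = 3). H2afv followed with 64.6 ± 2.65 (SD, n = 3), H2afj with 64.0 ± 7.28 (SD, n = 3) and Cenpa with 34.9 ± 1.75 (SD, n = 3), and H2afy was lowest with 4.12 ± 0.0707 (SD, n = 3). The order was identical in CHD4-APR libraries. Neighbours in this order did not overlap between libraries in either group, apart from H2afv and H2afj, whose libraries overlapped in both. The place of H2afz depends on the length used: with the longest transcript in place of all exons it stood at 358 RPKM in CTRL libraries, above H3f3a at 316. Counts per gene do not separate the splice forms of macroH2A.

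**Figure D1:**
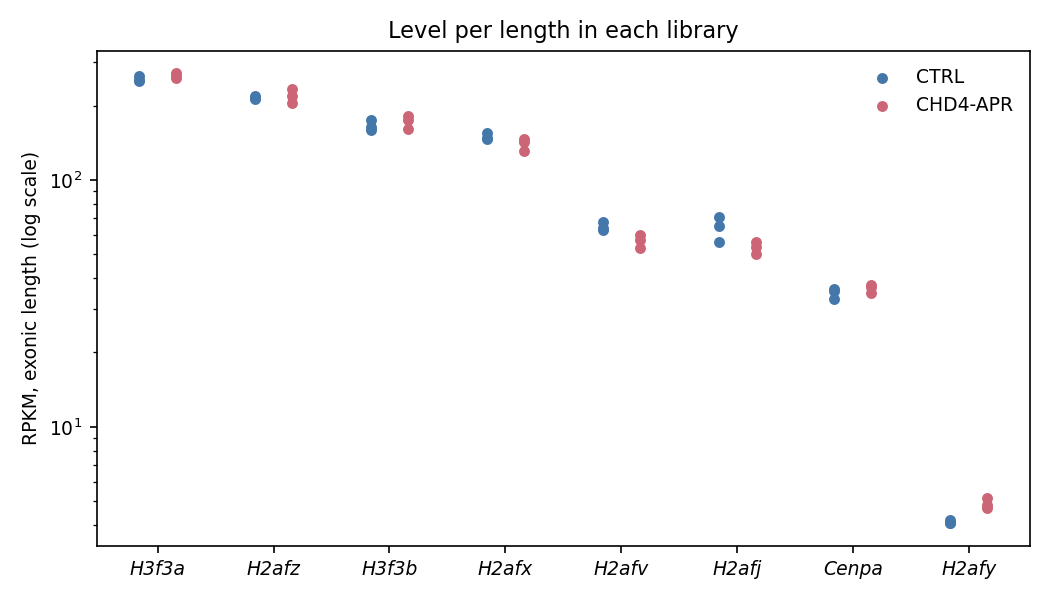
RPKM over the exonic length of the 8 genes tested, on a log axis, with 1 point per library (blue CTRL, red CHD4-APR) and the genes in the order of their CTRL mean. H3f3a, H2afz, H3f3b and H2afx lie at 130.8 RPKM or above in every library, and H2afy lies between 4.07 and 5.15.

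Between the peptides, changes in these genes were small: 1 gene, H2afy, was higher with CHD4-APR, 2 genes, H2afv and H2afj, were lower, and 5 did not pass the test (an FDR under 0.05 by edgeR's quasi-likelihood test with Benjamini-Hochberg adjustment over all genes tested). The share past the test, 37.5% of the 8, was close to the 38.3% of all 12722 genes tested, of which 2601 (20.4%) were higher and 2270 (17.8%) lower. That split was 2959 higher and 1474 lower with library totals alone, and 1488 (11.7%) higher and 2061 (16.3%) lower of 12677 genes, or 28% in all, after a correction for exonic length and GC content. After that correction 1 of the 8 genes was higher and 1 lower. The median log2 fold change was 0.03 over the 8 genes and -0.01 over all genes. Libraries of the groups did not overlap for 3 of the 8 genes (H2afv, H2afy and H2afx), against 49.9% of all genes tested. The largest of the 8 log2 fold changes, of H2afj, was -0.26, and no gene among them reached 1.5-fold.

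**Figure D2:**
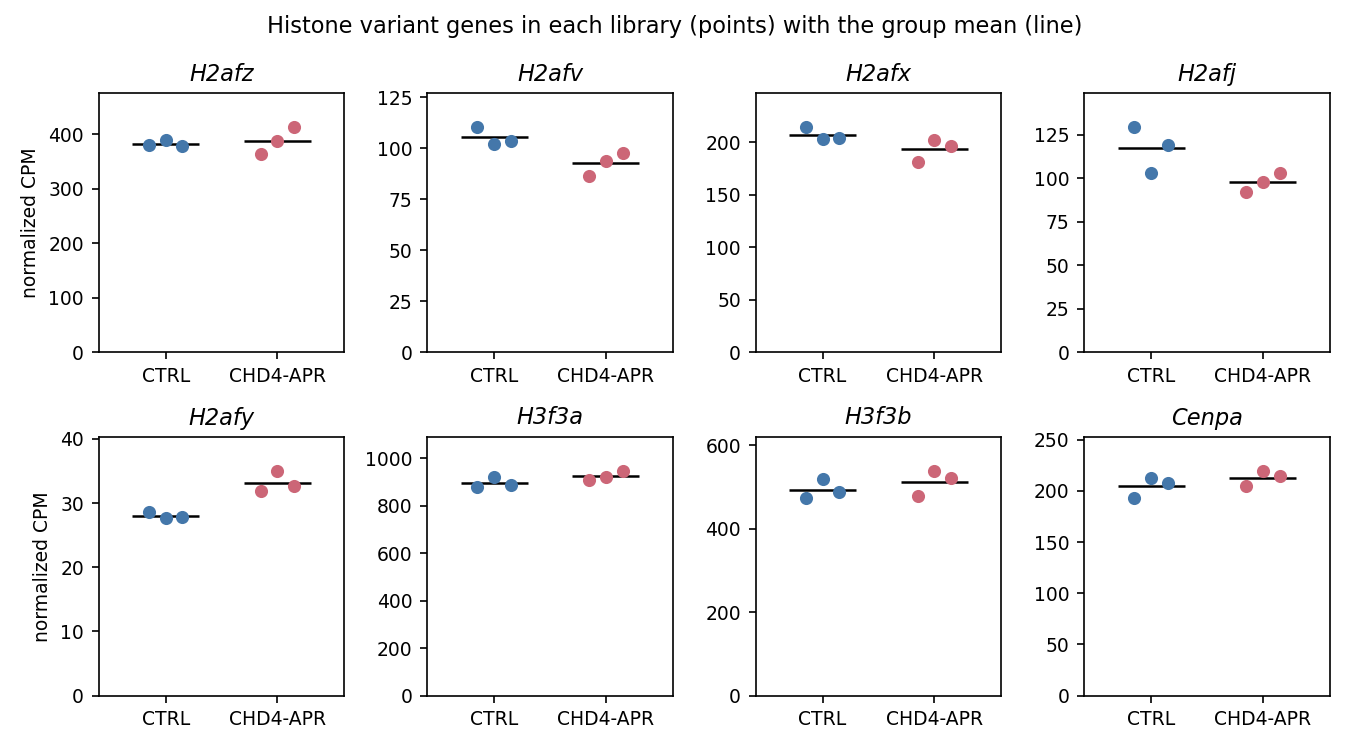
Normalized CPM of each gene in the 3 CTRL (blue) and 3 CHD4-APR (red) libraries, with the group mean as a line and each axis starting at 0. The red points lie below the blue ones for H2afv and H2afx and above them for H2afy, while the groups overlap in the other 5 panels.

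Of the 2 H2A.Z genes, H2afv fell and H2afz did not pass the test. H2afz, the more abundant, had 380.0, 389 and 379 normalized CPM with CTRL, against 364, 388 and 413 with CHD4-APR. The groups overlapped, with the lowest and the highest values both in CHD4-APR libraries. The log2 fold change was 0.02 (standard error 0.05, 95% interval -0.08 to 0.12, edgeR FDR 0.753).

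H2afv had 110.4, 102 and 104 normalized CPM with CTRL, against 86.5, 93.65 and 97.7 with CHD4-APR. All 3 CHD4-APR libraries were below all 3 CTRL libraries, a fold of 0.878. The log2 fold change was -0.19 (standard error 0.05, 95% interval -0.30 to -0.08, edgeR FDR 0.00914), and it was -0.17 (edgeR FDR 0.0113) after the length and GC correction. Without CHD4-APR replicate 1, the lowest library, it was -0.14 and no longer passed, with an FDR of 0.0665 by edgeR, the highest of 17 other fits.

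Of the RPKM on the H2A.Z pair, H2afv took 24.01%, 22.2% and 22.95% with CTRL, against 20.5%, 20.8% and 20.4% with CHD4-APR. The mean share was 23.1% ± 0.896 (SD, n = 3) with CTRL and 20.6% ± 0.171 (SD, n = 3) with CHD4-APR, with no overlap. This ratio within a library does not depend on library scaling. A two-sided exact permutation test of the share gave p = 0.1, the smallest that 3 against 3 libraries allow, so that it could not pass a threshold of 0.05. With the length of the longest transcript the share was 15.3% and 13.5%.

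H2afx encodes the H2A form that is phosphorylated around double-strand breaks, and is a gene of 1 exon at chr9:44334694-44336077. It had 214, 203 and 204 normalized CPM with CTRL, against 181, 202 and 197 with CHD4-APR. The groups did not overlap, but the highest CHD4-APR library, at 202.43, lay just below the lowest CTRL library, at 202.65. The log2 fold change of -0.10 (standard error 0.05, edgeR FDR 0.121) did not pass, and turned to 0.08 (edgeR FDR 0.202) after the length and GC correction. Its transcript has a GC content of 62.3%, against a median of 49.6% over the genes tested.

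H2afj lies at chr6:136808244-136810074 and encodes H2A.J, a variant known to accumulate in senescent cells. It had 129, 103.01 and 119 normalized CPM with CTRL, against 92.1, 98.1 and 103.02 with CHD4-APR. The spread was widest in CTRL, and the groups met at the lowest CTRL and the highest CHD4-APR library. The fold was 0.834 and the log2 fold change -0.26 (standard error 0.07, 95% interval -0.40 to -0.12, edgeR FDR 0.00585). With the length and GC correction it was -0.11 and no longer passed (edgeR FDR 0.163).

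Both H2afx and H2afj overlap an annotated miRNA gene on the other strand, and these features were lower with CHD4-APR. Gm44335, opposite H2afx, went from 7.73 ± 1.13 to 6.18 ± 0.611 normalized CPM (SD, n = 3 each), a log2 fold change of -0.32 (edgeR FDR 0.0383). Gm44364, opposite H2afj, went from 17.2 ± 1.49 to 14.3 ± 0.783 (SD, n = 3 each), a log2 fold change of -0.27 (edgeR FDR 0.0131). The library kit does not mark strand, so reads of each pair cannot be told apart. After the length and GC correction neither miRNA gene passed, at -0.14 and -0.06.

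H2afy encodes macroH2A, which carries a large globular domain behind its H2A part, and spans chr13:56073619-56136361 on the minus strand. It had 28.6, 27.7 and 27.8 normalized CPM with CTRL, against 31.8, 35.04 and 32.7 with CHD4-APR. All 3 CHD4-APR libraries were above all 3 CTRL libraries, a fold of 1.18. The log2 fold change was 0.24 (standard error 0.06, 95% interval 0.12 to 0.37, edgeR FDR 0.00393). It was 0.19 (edgeR FDR 0.0161) after the length and GC correction and passed in 17 of 17 other fits, where the FDR by edgeR, DESeq2 or limma-voom reached at most 0.0342. Among the 8 genes H2afy was thus the one with the lowest level, and the one that rose.

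H3f3a and H3f3b supply the replication-independent H3. H3f3a, at chr1:180800832-180813943 on the minus strand, had 880.3, 923 and 888 normalized CPM with CTRL, against 908, 923 and 948 with CHD4-APR. H3f3b, at chr11:116021912-116027962 on the minus strand, had 474, 519.6 and 487 with CTRL, against 479, 539 and 521 with CHD4-APR. The groups overlapped for both genes.

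The log2 fold change of H3f3a was 0.05 (standard error 0.04, 95% interval -0.04 to 0.13, edgeR FDR 0.412). That of H3f3b was 0.06 (standard error 0.05, 95% interval -0.05 to 0.16, edgeR FDR 0.411). Neither passed, and both turned below 0 after the length and GC correction, to -0.08 for H3f3a and -0.05 for H3f3b, again without passing. Within the pair, H3f3b took 39.3% ± 0.531 (SD, n = 3) of the H3.3 RPKM in CTRL and 39.5% ± 1.22 (SD, n = 3) in CHD4-APR libraries, with overlap and p = 0.9 by a two-sided exact permutation test.

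**Figure D3:**
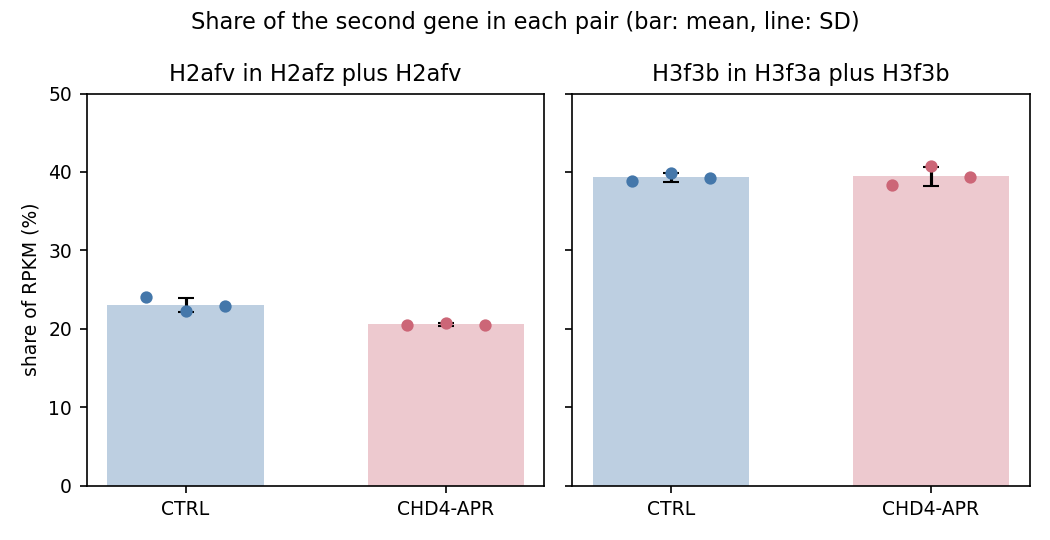
Share of the RPKM on each pair, in percent, taken by H2afv (left) and H3f3b (right) in the CTRL (blue) and CHD4-APR (red) libraries. Bars are means, lines SD and points the 3 libraries per group: the H2afv share is lower in every CHD4-APR library (20.4% to 20.8%) than in every CTRL library (22.2% to 24.01%), and the H3f3b shares overlap.

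Among the H3f3a pseudogenes, H3f3a-ps2 rose. It had 3.28, 3.91 and 3.62 normalized CPM with CTRL, against 5.99, 5.47 and 4.32 with CHD4-APR, without overlap. Its log2 fold change was 0.54 (standard error 0.13, edgeR FDR 0.00451), and 0.72 after the length and GC correction. The other two, H3f3a-ps1 on chromosome X and H3f3c on chromosome 2, are 98.1% and 99.0% identical to H3f3a and stood at log2 fold changes of -0.07 and 0.09, neither past the test. After the length and GC correction H3f3c was at 0.26 and passed (edgeR FDR 0.0105). How the counting treated reads that match several places is not given in the sources used here, so that values of the pseudogenes are uncertain, and the opposite-strand genes H3f3aos and Gm17275, which overlap H3f3a, did not pass (log2 fold changes 0.02 and 0.10).

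Cenpa, at chr5:30666777-30674830, encodes the H3 form that marks centromeres and is made ahead of mitosis in cycling cells. It had 193, 212 and 208 normalized CPM with CTRL, against 205, 219.8 and 215 with CHD4-APR. The groups overlapped, and the log2 fold change was 0.06 (standard error 0.05, 95% interval -0.04 to 0.16, edgeR FDR 0.342). The length and GC correction brought it to -0.01.

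H1f0 (chr15:79028450-79030504) encodes a linker histone known from cells that have left the cycle, and H1fx (chr6:87980421-87981637) another replication-independent linker histone. Both were listed at 0 counts in the 6 libraries. A count of 0 allows up to 3 counts, or 0.0607 to 0.0724 CPM by library, for counting error only. Both genes have 1 exon, and why they were at 0 was not tested. H1f0 overlaps the annotated gene Gm49544 on the other strand, which has no value in the count table used here, and Gm5577, opposite H1fx, held 283 counts over the 6 libraries. The miRNA gene Gm47286, on the same strand as H1fx, overlaps it as well and held 0. Whether reads on bases that H1fx shares with these genes were left out of the counting was not tested. The table did hold another linker histone with a polyadenylated form, Hist1h1c, named here after its values were seen, at 129 ± 3.48 normalized CPM in CTRL and 130.1 ± 2.33 in CHD4-APR libraries (SD, n = 3 each).

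**Figure D4:**
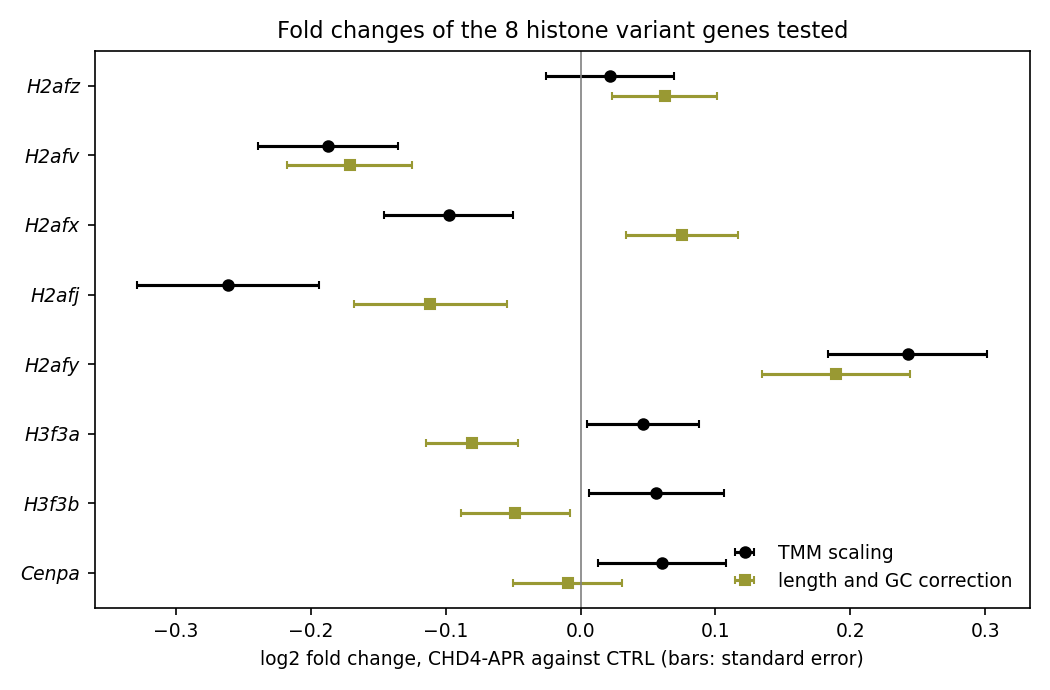
Log2 fold change, CHD4-APR against CTRL, of the 8 genes tested (bars: standard error), with TMM scaling (black circles) and after the length and GC correction (olive squares). H2afv stays below 0 and H2afy above 0 by more than 2 standard errors in both, whereas H2afx, H3f3a, H3f3b and Cenpa change sign.

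Among the genes that place, remove or read the variants, single genes had larger changes than any variant gene. Of 22 tested genes of the H2A.Z exchange complexes, 11 were higher and 5 lower with CHD4-APR (72.7% called, against 38.3% of all genes), with a median log2 fold change of 0.17 against -0.01 over all genes. The higher ones were led by Mbtd1 (0.56, FDR 1.17e-06), Epc2 (0.50, FDR 3.15e-05) and Srcap (0.49, FDR 0.00370), as edgeR FDRs. Mbtd1 and Epc2 are subunits of the TIP60 acetyltransferase complex, and Srcap is the ATPase that exchanges H2A for H2A.Z.

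Lower in that list were Dmap1 (-0.31, FDR 0.000309), Znhit1 (-0.29, FDR 0.000653) and Ruvbl2 (-0.28, FDR 0.000926, as edgeR FDRs), which encode subunits of the SRCAP complex, the TIP60 complex or both. With the length and GC correction 8 were higher and 5 lower (11.7% and 16.3% of all genes were), with a median of 0.04, but of these 7 and 2 had the same call without it. Morf4l1 was called higher without the correction (0.21, edgeR FDR 0.000717) and lower with it (-0.13, edgeR FDR 0.0215). Znhit1 (-0.12) and Ruvbl2 (-0.14) no longer passed, and Mbtd1 moved from 0.56 to 0.14, below Srcap (0.36) and Epc2 (0.34). Mbtd1, Epc2, Srcap and Dmap1 passed in 17 of 17 other fits.

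For H3.3, 4 of 8 chaperone genes were higher (20.4% of all genes were) and 0 lower, with a median log2 fold change of 0.05. Atrx, the remodeller that with Daxx places H3.3 at repeats, had 60.8, 73.8 and 72.6 normalized CPM with CTRL, against 111, 123 and 109.5 with CHD4-APR. Without the length and GC correction, this was the largest change among the exchange, chaperone, kinetochore and signalling genes described here. The groups did not overlap (log2 fold change 0.73, standard error 0.07, edgeR FDR 1.17e-06). Ubn2, a subunit of the HIRA complex, rose by 0.50 and Dek by 0.22. After the length and GC correction Atrx was at 0.30, no longer the largest (the general chaperone gene Spty2d1 was at 0.39). Ubn2 was at 0.13 and Dek at 0.01, and Atrx and Ubn2 still passed the test. In that fit 2 genes of the list were higher and 2 lower, where 11.7% of all genes were higher and 16.3% lower.

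Of 21 genes for CENP-A deposition and the inner kinetochore, 4 were higher and 4 lower, with a median log2 fold change of -0.07. The share called, 38.1%, was close to that of all genes tested (38.3%). Cenpc1 (0.42), which binds CENP-A nucleosomes, and Mis18a (0.17), which takes part in CENP-A loading, were among the higher ones. The inner kinetochore genes Cenpt (-0.36), Cenpx (-0.31) and Cenpm (-0.18) were lower. The corrected fit had 0 higher and 7 lower (11.7% and 16.3% of all genes were), with a median of -0.11, and Cenpt, at -0.31, was the 1 of these with the same call without it. Cenpc1 (0.17), Mis18a (0.15), Cenpx (-0.13) and Cenpm (-0.01) no longer passed.

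Of 14 tested genes that write or read H2AX phosphorylation, 6 were higher and 1 lower, with a median log2 fold change of 0.13. Higher calls made up 20.4% of all genes tested. Rnf168 (0.51), a ubiquitin ligase recruited to breaks, and the kinases Atm (0.47) and Prkdc (0.30) were the top 3, and Rnf8 (-0.24) was lower. In the corrected fit 1 was higher, Rnf168 at 0.38, and 3 were lower, among them Rnf8 at -0.42, against 11.7% and 16.3% of all genes, and the median was -0.04. Atm (0.16) and Prkdc (-0.03) no longer passed. The median exonic length of this list was 8170.5 bases, against 3688 over all genes tested and 2403.5 over the variant genes.

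Of 20 general histone chaperone genes, 4 were higher and 2 lower (30% called, against 38.3% of all genes), with a median log2 fold change of -0.01. Spty2d1 (0.57), a chaperone of H3 and H4, was the furthest from 0. Mms22l and Rbbp4 followed at 0.19 each. Tonsl (-0.21), the partner of Mms22l at replication forks, and Ssrp1 (-0.14), a FACT subunit, were lower. With length and GC content corrected, 2 were higher and 3 lower, with a median of -0.05, and of all genes 11.7% were higher and 16.3% lower. Spty2d1 (0.39) and Tonsl (-0.13) still passed, and Mms22l (0.05), Rbbp4 (-0.03) and Ssrp1 (-0.11) did not.

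**Figure D5:**
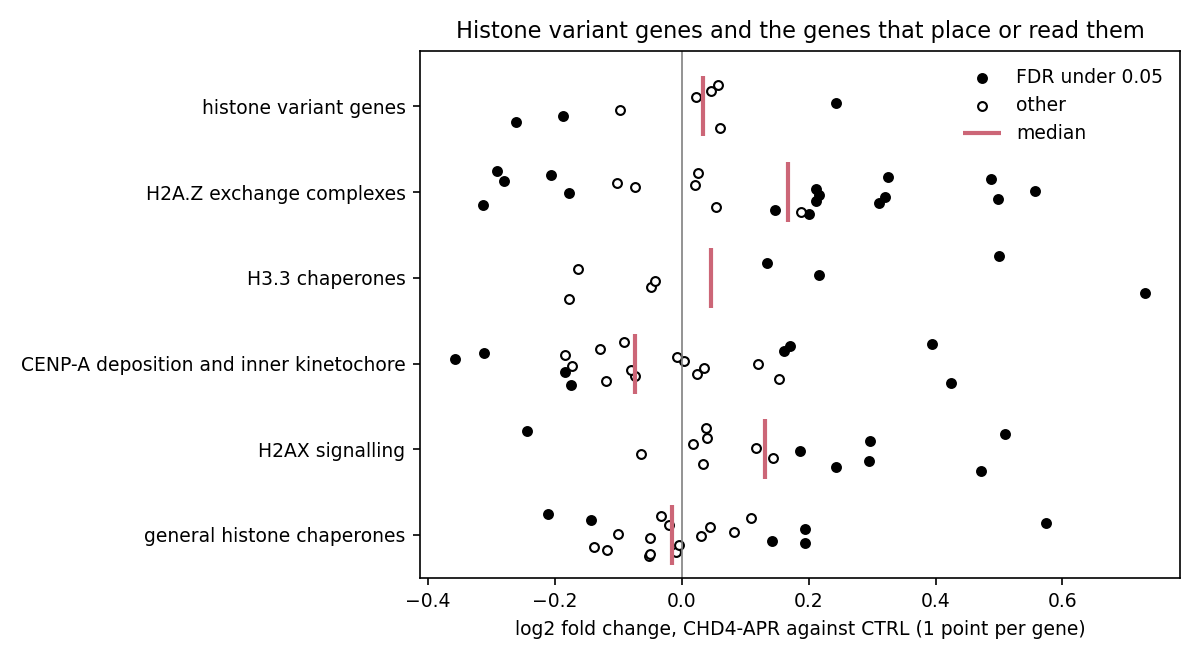
Log2 fold change, CHD4-APR against CTRL, of each gene tested in 6 lists (filled: FDR under 0.05 by edgeR's quasi-likelihood test; red line: median of the list). The variant genes lie between -0.26 and 0.24, and the point furthest to the right is Atrx at 0.73.

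Of 20 genes for other histone variants and polyadenylated histones, 5 were tested and 10 were listed at 0 in every library. Hist1h2bc was lower (log2 fold change -0.16, edgeR FDR 0.0439) and 0 were higher, where 17.8% of all genes were lower and 20.4% higher. With the length and GC correction 2 were higher, H3f3c at 0.26 and Hist1h1c at 0.18 (edgeR FDR 0.00263), and Hist1h2bc was still lower (-0.15), against 11.7% and 16.3% of all genes. H3f3c is the processed pseudogene of H3f3a described above, whose values are uncertain. Of the replication-dependent histone genes, which share some members with that list, 58 of 65 were tested, 0 were higher and 9 lower. The 9 are 15.5% of those tested, below the 17.8% of all genes called lower, and the median log2 fold change was -0.21 against 0.03 for the variant genes. The poly(A) libraries capture these mRNAs only in part. Corrected for length and GC content, the median was -0.06, with 1 higher and 6 lower (11.7% and 16.3% of all genes were).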

How the data were processed

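The authors trimmed reads with cutadapt, aligned them with STAR 2.7.10a against GRCm38, and obtained counts for Ensembl genes (release 86 names) from featureCounts. The deposited values are raw counts per gene and library, not normalized, and the strand setting and the treatment of reads with several matches are not given in the sources used here. Another 2 columns of values matched no sample and were not used. Identifiers were named from GENCODE M21 on GRCm38, which held 48349 of 48709, and coding sequences were read from its transcripts.

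R 4.3.3 was used with edgeR 4.0.16, DESeq2 1.42.0 and limma 3.58.1. The default filter filterByExpr kept 12722 genes, libraries were scaled by TMM, and 3 CHD4-APR libraries were compared with 3 CTRL libraries by edgeR's quasi-likelihood F-test with Benjamini-Hochberg adjustment (FDR under 0.05). Normalized CPM used TMM library sizes, RPKM the union of exons. For the length and GC correction (12677 genes), each library's log2 CPM were smoothed with mgcv 1.9.3 on exonic length and GC content, and the smooths entered edgeR as offsets. The edgeR, DESeq2 and limma-voom fits, without filter or block, and the length and GC correction were run on simulated counts. The other steps were not. All replicate pairs differed by more than sampling noise. Depth was 41687482 to 49784177 counts, and limits from a count of 0 used 3 counts.

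The 10 genes, the companion lists (H2A.Z exchange, H3.3 chaperones, CENP-A deposition and inner kinetochore, H2AX signalling, general chaperones, other variants, replication-dependent histones, mitosis, S phase and cell type markers), the tests and the alternatives were chosen with earlier results of these data known. All 10 genes are named, with at most 3 genes per direction of each list by size of change at an FDR under 0.05, and tested pseudogenes and overlapping genes. Hba-a2 and Morf4l1 are named beyond this rule. A gene that this rule names is not reported here. The alternatives were DESeq2, limma-voom, other scalings and filters, leaving out hemoglobin genes, a replicate block, the length and GC correction, an FDR under 0.01, other lengths or TPM for levels, and leaving out each library.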

Additional observations from a re-analysis of the deposited data

How the results depend on the processing

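H2afy and H3f3a-ps2 kept their direction and passed in all alternatives run, and H2afv in all but that without CHD4-APR replicate 1 (-0.14). H2afj lost its call with the length and GC correction (log2 fold change -0.11, and -0.11 with the replicate block as well), so that 1 gene of the 8 was lower there, as without CHD4-APR replicate 1 (leaving out 1 library gave 1 to 2). Signs turned for H2afz without CHD4-APR replicate 3 (-0.019; leave-one-out range -0.019 to 0.070) and, with the length and GC correction without and with the block, for H2afx (0.075 and 0.075), H3f3a (-0.081 and -0.081), H3f3b (-0.048 and -0.049) and Cenpa (-0.0097 and -0.0095). None of these passed the test in either fit.

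Over all genes, 2601 were higher, against 1488 with the length and GC correction and 1683 with the block added, and 2270 were lower, against 1474 with library totals alone and 1308 at an FDR under 0.01. List medians moved from 0.17 to 0.036 and 0.033 (H2A.Z exchange), from 0.13 to -0.044 and -0.046 (H2AX signalling) and from -0.21 to -0.059 and -0.058 (replication-dependent histones) with the correction without and with the block, and for H3.3 chaperones from 0.046 to 0.091 with library totals alone. Leaving out each library gave medians of 0.11 to 0.20 for H2A.Z exchange, 0.031 to 0.068 for H3.3 chaperones, -0.085 to 0.016 for the CENP-A list, 0.085 to 0.15 for H2AX signalling, -0.042 to 0.034 for other variant genes and -0.27 to -0.15 for replication-dependent histones. With the longest transcript the CTRL share was 15.3% for H2afv and 38.3% for H3f3b, since the length sets the share. For the other changes the cause was not tested.

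Replicate numbers showed no clear pairing over all genes: the deviations of same-numbered libraries correlated at 0.070, 0.055 and -0.035 over 12722 genes. Such correlations do not settle whether the libraries were paired. With the replicate block 2739 genes were higher and 2475 lower, against 2601 and 2270 without it, and the calls of the 8 genes were as without it. With 3 libraries a group, changes of the size seen in H2afz, H3f3a, H3f3b or Cenpa were within their standard errors or little above them, and counts per gene do not resolve isoforms or the copies of H3f3a.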

Other observations

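Proliferation genes, which bear on CENP-A and the replication-dependent histones, showed no common direction. Of 16 mitosis genes, 3 were higher (Kif11 0.40, Bub1 0.20 and Ccna2 0.14 as log2 fold changes, CHD4-APR against CTRL) and 2 lower (Plk1 -0.25 and Birc5 -0.23), with a median of -0.01 (31.2% called, against 38.3% of all genes tested). Of 21 S-phase genes, 4 were higher, led by Mcm4 (0.39), the polymerase subunit Pola1 (0.38) and the ribonucleotide reductase subunit Rrm1 (0.21), and 0 were lower, with a median of 0.01 (19% called, where 20.4% of all genes were higher and 17.8% lower). After the length and GC correction 0 mitosis genes were higher and 3 lower, and 2 S-phase genes were higher and 3 lower, where 11.7% of all genes were higher and 16.3% lower. Of the genes named, Birc5 (-0.26) and Mcm4 (0.31) still passed there and the others did not, with Bub1 (-0.01) and Rrm1 (-0.09) on the other side of 0.

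Markers of other blood cells were low. Summed normalized CPM were 46.7 to 48.8 in CTRL and 39.8 to 45.7 in CHD4-APR libraries for 6 megakaryocyte markers, of which 3 were at 0 and Gp9 was lower (-0.31). They were 8.36 to 9.79 and 6.76 to 8.16 for 6 macrophage markers, of which 3 were at 0 and Cd68 was lower (-0.38), and 0.401 to 0.579 and 0.403 to 0.515 for 6 mast cell markers, of which 1 was at 0. Counts on the erythroid factor gene Gata1 (0.21) and the transferrin receptor gene Tfrc (0.26) were higher, whereas 4 globin genes were lower. The cells also express the GATA-1 fusion, whose reads may be counted on Gata1. A change of the cells' own Gata1 cannot be told apart from a change of the fusion. In the corrected fit Gata1 (0.35), Hbb-bs and Hbb-bt still passed, and Tfrc (-0.02), Hba-a1 (-0.04), Hba-a2 (-0.01), Gp9 (-0.10) and Cd68 (-0.24) did not. Among the replication-dependent histone genes Hist1h2bb (-1.01), Hist1h2af (-0.57) and Hist1h2ae (-0.55) fell the most among those past the test, from 1.02, 3.99 and 5.68 normalized CPM in CTRL libraries, and still passed with the correction.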
